A study of Homo sapiens with 80 samples.

Results

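The genes described here are 10 genes of the plasma membrane, cell adhesion, the cell cortex and membrane traffic (TM4SF1, PLAUR, AKAP12, FCRLB, TGM2, RAB13, ANXA1, SYNPO, STON1 and RGS16), out of 58735 genes in the RNA-seq tables, 17792 in the PRO-seq table and 17463 in the DGE table. They were chosen by name, as genes whose counts were higher after lenalidomide in the DGE libraries, so every value from DGE is a description and carries no test. The genes were tested in the other libraries, whose values are separate measurements but were already known when the genes were chosen.

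Gene counts were analysed for 42 of the 80 samples, in 14 groups of 3 libraries, from the established cell lines SU-DHL-1 and KI-JK, which derive from T-cell lymphomas of the anaplastic large cell type with an ALK fusion. The 38 ChIP-seq libraries were not analysed here. SU-DHL-1 was studied as the parental line and as regrown cells, which are 3 separately derived pools that grew out under rising lenalidomide and then spent at least 2 months without it. DGE, which sequences transcript ends, had 4 groups, parental or regrown cells given DMSO (the solvent) or 2.5 µM lenalidomide for 18 h. PRO-seq, which reads RNA being made by engaged polymerase, had parental and regrown cells with no treatment. RNA-seq had 4 groups of parental or regrown cells that all carried Cas9 and an inducible guide against ZFP91, with doxycycline at 1 µg/ml for 96 h (labelled KO) or without it (labelled WT), so the effects of doxycycline and of the guide cannot be told apart. RNA-seq also covered an empty vector and a CSNK2B overexpression vector in SU-DHL-1 and in KI-JK, and KI-JK was grown with more serum. Separate cultures are labelled only for the regrown pools, so p-values measure the spread between these libraries, which elsewhere may be technical.

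Lenalidomide binds cereblon, the substrate receptor of a ubiquitin ligase, and directs it to zinc finger proteins such as IKZF1 and ZFP91, which are then degraded. CSNK2B encodes the regulatory subunit of the kinase CK2. The urokinase receptor, annexins, transglutaminase and proteins related to tetraspanins organise the cell surface, where they tie adhesion receptors, proteases and membrane traffic to the actin cortex.

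The members fall into 4 roles, given with the regions counted in PRO-seq on hg38. At the surface, TM4SF1 (chr3:149369022-149377648, minus strand) encodes a protein that crosses the membrane 4 times, PLAUR (chr19:43648579-43670168, minus strand) the receptor of the protease urokinase, and TGM2 (chr20:38127385-38165270, minus strand) a protein-crosslinking transglutaminase that also acts with integrins. Beneath the membrane, ANXA1 (chr9:73151865-73170393, plus strand) encodes a calcium-dependent phospholipid-binding protein, AKAP12 (chr6:151325531-151356773, plus strand) a scaffold for protein kinase A, and SYNPO (chr5:150640400-150659207, plus strand) an actin-associated protein. For membrane traffic, RAB13 (chr1:153981650-153986339, minus strand) encodes a small GTPase of recycling vesicles and cell junctions, and STON1 (chr2:48530219-48598512, plus strand) an adaptor of endocytosis. The signal modulators are FCRLB (chr1:161722189-161727664, plus strand), which encodes an intracellular protein related to Fc receptors, and RGS16 (chr1:182598623-182604389, minus strand), which encodes a protein that speeds the turn-off of G proteins.

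Because most members were higher under the drug together, the 250 bases before each annotated start were searched for 8 short motifs on both strands. RefSeq promoter entries (GRCh38.p14) matched 8 of the 10 members, with 14 windows among 35116 of all genes. STON1 and TGM2 had no entry. Windows at the start of the region counted in PRO-seq are shown whole for PLAUR, TM4SF1 and ANXA1, as 5′ to 3′ bases with a motif in capitals. These are the AP-1 letters TGANTCA in PLAUR (chr19:43670170-43670419, minus strand, bases -186 to -180 from the start), an NF-kB match in TM4SF1 (chr3:149377650-149377899, minus strand, bases -126 to -117) and the TATA box letters TATAAA in ANXA1 (chr9:73151615-73151864, plus strand, bases -31 to -26).
PLAUR: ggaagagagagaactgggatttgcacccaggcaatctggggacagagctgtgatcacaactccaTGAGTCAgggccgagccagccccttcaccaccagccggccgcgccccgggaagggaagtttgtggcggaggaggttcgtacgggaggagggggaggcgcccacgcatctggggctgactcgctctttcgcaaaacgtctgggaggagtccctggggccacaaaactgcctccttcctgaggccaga
TM4SF1: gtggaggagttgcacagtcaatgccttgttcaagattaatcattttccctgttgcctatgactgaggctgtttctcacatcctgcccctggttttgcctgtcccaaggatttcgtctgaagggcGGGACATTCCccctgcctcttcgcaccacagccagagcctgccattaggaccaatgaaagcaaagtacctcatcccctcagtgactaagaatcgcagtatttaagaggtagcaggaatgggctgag
ANXA1: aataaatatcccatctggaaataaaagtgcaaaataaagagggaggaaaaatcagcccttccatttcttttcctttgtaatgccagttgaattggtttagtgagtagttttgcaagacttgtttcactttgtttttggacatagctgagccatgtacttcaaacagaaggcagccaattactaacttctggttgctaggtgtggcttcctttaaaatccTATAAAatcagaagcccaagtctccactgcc

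Shorter pieces show the other AP-1 matches, which lie before alternative starts of FCRLB (chr1:161722096-161722122, plus strand) and RAB13 (chr1:153985471-153985500, minus strand), and a STAT match, letters TTCNNNGAA, before the counted start of AKAP12 (chr6:151325309-151325337, plus strand). RAB13 held a pair of AP-1 matches, between bases -102 and -83.
FCRLB: gggtggttggTGAGTCAtgccttttcg
RAB13: gtctcTGAGTCAgcctggTGACTCAtcctc
AKAP12: gtgtggctatTTCCTTGAAatgacttaaa

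An AP-1 match lay in the windows of 3 of the 8 members, and 6.57% of all 35116 windows held one. STAT letters were in 1 member (6.57% of windows), an NF-kB match in 2, TM4SF1 and AKAP12 (9.96%), the Ikaros core TGGGAA in 2, FCRLB and RAB13 (20.8%), and the TATA box in ANXA1 alone (10.7%). The GC box GGGCGG was in 5 members (42.6%), and in TM4SF1 it overlapped the NF-kB match. Neither the CRE letters TGACGTCA (1.65%) nor the ISRE-like motif (3.02%) were found in a member's windows. Several members had more than 1 window, so shares of members and of windows are not on the same footing, and a match is letters in a window, not a bound site.

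ALK was at 336 to 684 CPM (counts scaled to a common library total) and TNFRSF8, which encodes CD30, at 144 to 1030 CPM over all groups. In RNA-seq the endothelial genes PECAM1 and CDH5, the T-cell gene CD3E and the monocyte gene CD14 were at or near 0, with CD14 at no more than 0.553 CPM. All 8 listed endothelial markers summed to 0.4549 to 4.71 CPM in RNA-seq, with 0 to 2 of them over 1 CPM. In PRO-seq the 1 endothelial marker counted was at 12.78 to 20.53 CPM. The 8 listed stromal markers summed to 3.118 to 19.38 CPM in RNA-seq. The whole list of 13 T-cell markers summed to 64.96 to 188.7 CPM in RNA-seq, with 2 to 5 of its genes over 1 CPM. The B-cell factor PAX5 was at 10.9 CPM or more with the empty vector and 8.64 to 9.1 CPM with CSNK2B in KI-JK, and at no more than 0.23 CPM in SU-DHL-1. CD163, on the list of myeloid markers, was at 305 to 586 CPM in RNA-seq of parental SU-DHL-1 and of SU-DHL-1 with either vector. In RNA-seq of regrown SU-DHL-1 it was at 4.69 to 7.89 CPM. Totals were 33467869 to 47199672 counts per library in PRO-seq, 14444523 to 28927808 in RNA-seq and 41571 to 395827 in DGE. The smallest DGE library was parental lenalidomide replicate 3, where 3 counts equal 72.2 CPM, so low members are coarse there.

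In parental cells, lenalidomide libraries stood above all DMSO libraries in 9 of the 10 members, with RGS16 the exception. Of all genes tested 5.26% did so, 9.16% had all drug libraries lower, and 0.845% were called (edgeR adjusted p under 0.05 over all genes), and nothing is read from these shares because the members were chosen on this comparison. The median log2 change of the members was 1.65, and that of all genes -0.00305. TGM2 at 3.63 ± 0.42 (SE), FCRLB at 3.57 ± 0.32 and AKAP12 at 3.55 ± 0.31 were at the top, and ANXA1 at 0.97 ± 0.15 and RGS16 at 0.23 ± 0.23 at the bottom.

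At the surface, TM4SF1 was at 592, 631 and 639 CPM with DMSO and at 1859, 2041 and 1636 CPM with lenalidomide in parental replicates 1 to 3. All drug libraries were far above all controls, with a fitted log2 change of 1.64 ± 0.16. PLAUR went from 267, 285 and 305 CPM to 828, 963 and 794 CPM, a log2 change of 1.66 ± 0.19. TGM2 had only 5, 2 and 4 counts with DMSO and 54, 47 and 3 with the drug. Its ratio over pooled counts was 12.6 (95% exact counting interval 6.76 to 26.0, which covers counting error only), so the fold is known only within wide limits.

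Beneath the membrane, AKAP12 was at 54.6, 17.3 and 20.9 CPM with DMSO and at 378, 366 and 241 CPM with lenalidomide. Without the highest control library, DMSO replicate 1, its log2 change was 4.22. ANXA1 had the highest counts of the members in these libraries and moved from 1226, 1308 and 1173 CPM to 2342, 2665 and 1900 CPM. SYNPO rested on few counts, 12, 8 and 14 against 26, 34 and 7, with a log2 change of 1.49 ± 0.37.

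RAB13 was at 48.8, 74.9 and 47.8 CPM with DMSO and 137, 139 and 96.2 CPM with the drug, where the last value is 4 counts. STON1 was at 28.7, 23.1 and 32.8 CPM and then at 134, 126 and 144 CPM, which gave a log2 change of 2.26 ± 0.33. These values rest on 10, 8 and 11 counts with DMSO and on 45, 50 and 6 with the drug. FCRLB was at 25.8, 20.2 and 17.9 CPM and rose in the drug libraries to 197, 298 and 241 CPM. The groups overlapped for RGS16, at 198, 176 and 161 CPM with DMSO and 179, 205 and 289 CPM with lenalidomide. CD163 was at 122 to 158 CPM with DMSO and 245 to 577 CPM with lenalidomide in the same libraries, and the 10 listed myeloid genes summed to 149.3 to 172.9 and 265.3 to 577.3 CPM, with 5 of the 10 in this table. The part of CD163-bearing cells or of CD163 itself in the members' values was not tested.

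In regrown cells, which had grown out under the drug, most members also had higher counts with lenalidomide. In 9 members every drug library was above every DMSO library, and AKAP12 was the exception. Of all genes tested 4.61% did so and 5.83% had all drug libraries lower. Nothing is read from these shares either, because the members were chosen as genes higher with the drug in DGE. TGM2 and STON1, among the 9, are not among the genes tested. Only 7 members passed the filter on low counts, so the median log2 change, 2.62, leaves out AKAP12, TGM2 and STON1, and all genes had a median of -0.00659 with 0.23% called. Same-numbered regrown libraries come from the same pool, so the response can be read pool by pool.

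TM4SF1 was at 214, 197 and 147 CPM with DMSO and at 1080, 1261 and 1078 CPM with lenalidomide in pools 1 to 3, ratios of 5.04, 6.40 and 7.34. Drug-treated pools thus lay above untreated parental cells (592 to 639 CPM) and below treated parental cells (1636 to 2041 CPM). PLAUR varied more, from 111, 70.2 and 53.7 CPM to 237, 869 and 463 CPM, so its ratio ranged from 2.13 in pool 1 to 12.4 in pool 2. RAB13 differed from PLAUR in pool 1, with a ratio of 25.5 in pool 1 (3 and 26 counts), 7.27 in pool 2 and 3.54 in pool 3.

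AKAP12 had 3, 7 and 1 counts with DMSO and 5, 17 and 1 with lenalidomide in pools 1 to 3. Pool 3 thus showed no higher level, 3.58 and 2.86 CPM, and the ratios by pool were 4.90, 6.80 and 0.80. The ratio over pooled counts was 3.49 (95% exact counting interval 1.64 to 7.93), where in parental cells it was 11.7 (8.13 to 17.5). Pool 3 had the deepest lenalidomide library (349614 counts) but the shallowest DMSO library (279197 counts). Pooled ratios in regrown cells therefore give it more weight with the drug, and their intervals leave out differences between pools. TGM2 had 3, 1 and 0 counts against 13, 3 and 27, a pooled ratio of 18.0 (6.52 to 68.8), and its count of 0 allows a level of up to 10.7 CPM. STON1 had 4, 5 and 1 counts against 4, 2 and 8, and its interval of 0.966 to 5.88 includes no change.

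RGS16, which overlapped between parental groups, was at 914, 588 and 648 CPM with DMSO and 1621, 1420 and 1147 CPM with the drug in regrown cells, a log2 change of 0.97 ± 0.22. FCRLB was at 25.1, 10.8 and 43.0 CPM and then at 156, 143 and 200 CPM. ANXA1 and SYNPO changed by much the same amount as in parental cells, 1.06 ± 0.21 against 0.97 ± 0.15 for ANXA1 and 1.53 ± 0.31 against 1.49 ± 0.37 for SYNPO. The difference between the regrown and parental responses ran from -1.56 ± 0.95 in AKAP12 to 1.78 ± 0.59 in RAB13. The AKAP12 value went to -3.21 without regrown lenalidomide pool 2 and to -0.57 without regrown lenalidomide pool 3, and was also nearer 0 without regrown DMSO pool 2. In all, 0 of 6838 genes tested were called for that difference in edgeR, with 285 at an unadjusted p under 0.05. CD163 was at 2.79 to 17.9 CPM with DMSO and 7.55 to 40.0 CPM with lenalidomide in the pools, far below its parental values.

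Before the drug, regrown pools already differed from parental cells in these libraries. TM4SF1, PLAUR, RAB13 and ANXA1 were lower with DMSO, at -1.74 ± 0.19, -1.85 ± 0.24, -1.92 ± 0.44 and -0.83 ± 0.16 on the log2 scale, and RGS16 was higher at 1.99 ± 0.20, with 6 members passing the filter and 6.21% of all genes called. With lenalidomide in both, AKAP12 (-3.02 ± 0.52) and STON1 (-2.52 ± 0.47) stood lowest in regrown cells relative to parental ones and RGS16 highest (2.72 ± 0.26), with 2.78% of all genes called. STON1 in drug-treated pools, at 15.1 to 32.7 CPM, overlapped untreated parental cells, at 23.1 to 32.8 CPM. The DMSO and lenalidomide libraries here are those of the drug comparisons above, so these values are not independent of them.

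**Figure D1:**
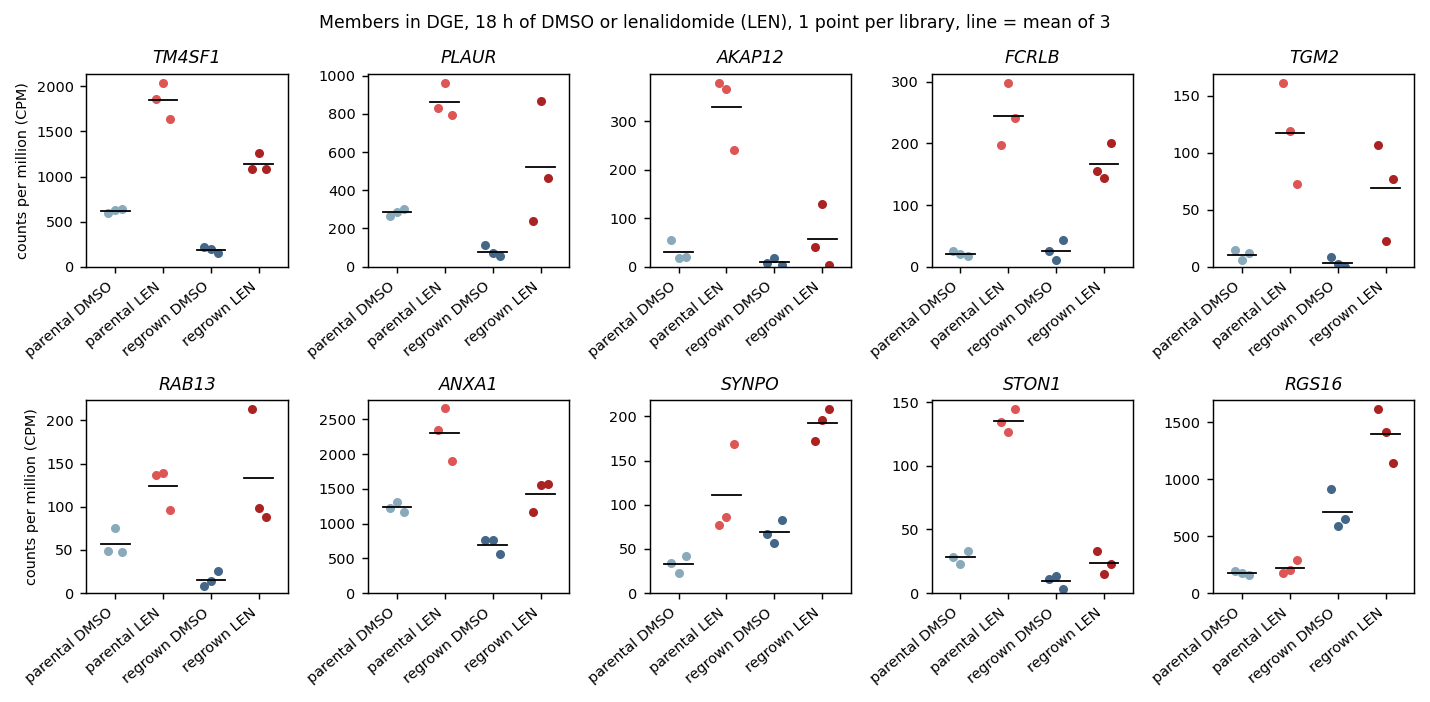
CPM of each member in the 12 DGE libraries, 1 point per library, with bars at the mean of 3, for parental and regrown SU-DHL-1 with DMSO or lenalidomide (LEN). Points of the LEN groups lie above those of the DMSO groups in 9 of 10 members in each background, with RGS16 overlapping in parental cells and AKAP12 in regrown cells.

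In PRO-seq, regrowth split the members. Polymerase counts of RGS16, FCRLB and SYNPO rose, those of AKAP12, PLAUR and STON1 fell, and TM4SF1, ANXA1, RAB13 and TGM2 did not pass the test. With 30.2% of 16456 genes called, 14% higher and 16.2% lower, a count of 3 higher and 3 lower among 10 is not a result about the group. The median over the members was -0.32 and that over all genes 0.0223.

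RGS16 was at 61.0, 78.5 and 67.3 CPM in parental and at 334, 358 and 414 CPM in regrown libraries, with every regrown library above all parental ones. Its log2 change was 2.41 ± 0.13 (adjusted p = 1.56e-06, edgeR). FCRLB went from 61.3, 53.5 and 48.1 CPM to 98.6, 94.7 and 109 CPM, a log2 change of 0.88 ± 0.11 (adjusted p = 0.000263). SYNPO rose less, from 120, 139 and 135 CPM to 215, 179 and 164 CPM (0.50 ± 0.12, adjusted p = 0.0115), and without parental replicate 1 its adjusted p was 0.0534.

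PLAUR was at 317, 343 and 357 CPM in parental and 187, 117 and 98.6 CPM in regrown libraries, with no overlap and a log2 change of -1.35 ± 0.21 (adjusted p = 0.000799). STON1 fell from 39.2, 44.3 and 45.1 CPM to 19.1, 21.1 and 21.9 CPM (-1.06 ± 0.11, adjusted p = 8.34e-05). AKAP12 fell from 9.30, 9.06 and 8.11 CPM to 2.51, 3.57 and 0.911 CPM (-1.94 ± 0.38, adjusted p = 0.00363), and pool 3 was the lowest, as it was in DGE. AKAP12 and PLAUR sit among neighbours that were also lower, as 14 of the 24 nearest tested genes of AKAP12 and 11 of the 24 of PLAUR were called lower, with medians of -0.521 and -0.437. CD163 fell in the same libraries, from 66.5 to 88.6 CPM down to 8.37 to 33.4 CPM, and its part in the members' changes was not tested.

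TM4SF1 overlapped between the groups, at 99.2, 162 and 135 CPM in parental and 144, 95.6 and 49.1 CPM in regrown libraries (-0.46 ± 0.32, adjusted p = 0.3). Without regrown pool 1, the highest of the 3, its log2 change was -0.90 with an adjusted p of 0.0304, so this pool decided the call. ANXA1 ranged from 48.6 to 92.8 CPM in parental and from 27.2 to 63.9 CPM in regrown libraries. TGM2 differed among the pools, at 79.6, 59.1 and 33.6 CPM, around parental values of 57.0 to 61.8 CPM.

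Divided by the length of the counted region, PRO-seq also orders the members by level. In parental cells PLAUR at 15.7 ± 0.94 CPM per kb (SD, n = 3), TM4SF1 at 15.3 ± 3.64 and RGS16 at 11.95 ± 1.54 led, followed by FCRLB at 9.91 ± 1.22. Each of these overlapped its neighbour in the order. Below them were SYNPO at 6.98 ± 0.54, ANXA1 at 3.76 ± 1.197, RAB13 at 1.65 ± 0.19, TGM2 at 1.56 ± 0.064, STON1 at 0.628 ± 0.047 and AKAP12 at 0.282 ± 0.020 CPM per kb, of which only RAB13 and TGM2 overlapped. In regrown cells RGS16 stood first at 63.9 ± 7.18 CPM per kb, and PLAUR was at 6.20 ± 2.15.

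In steady-state RNA of the cells without doxycycline 7 members were lower with regrowth (STON1, TM4SF1, PLAUR, AKAP12, RAB13, FCRLB and ANXA1), RGS16 and SYNPO were higher, and TGM2 did not pass the test (-0.40 ± 0.27, adjusted p = 0.25). Of all 13379 genes 43.7% were called, 22.6% higher and 21.1% lower. The median of the members was -1.04 and that of all genes -0.00253. The libraries also differed in how counts depend on gene length, with a slope of log2 CPM per 10-fold length of 0.00991, -0.0492 and -0.138 in parental and 0.131, 0.068 and 0.265 in regrown libraries. With that slope as a covariate the number of members called was 9 again, and FCRLB moved from -0.77 to -1.18.

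TM4SF1 was at 236, 251 and 265 CPM in parental and 43.4, 47.9 and 38.4 CPM in regrown libraries, a log2 change of -2.44 ± 0.10 (adjusted p = 9.89e-10, edgeR). STON1 fell from 34.5, 32.0 and 30.2 CPM to 4.69, 7.41 and 3.08 CPM (-2.56 ± 0.23, adjusted p = 8.61e-07). PLAUR fell from 95.1, 101 and 109 CPM to 34.5, 32.2 and 26.3 CPM (-1.62 ± 0.11, adjusted p = 8.23e-08). In these 3 genes the regrown libraries lay far below the parental ones.

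AKAP12 was at 19.7, 24.2 and 16.8 CPM in parental libraries and spread over 11.7, 1.54 and 6.50 CPM in the pools. Its fall of -1.52 ± 0.42 had an adjusted p of 0.00843 in edgeR and 0.0838 in DESeq2. RAB13 fell from 6.29 to 7.84 CPM down to 2.24 to 3.08 CPM (-1.32 ± 0.26, adjusted p = 0.000857). FCRLB fell by 0.77 ± 0.14 on the log2 scale (adjusted p = 0.000382) and ANXA1 by 0.62 ± 0.09 (adjusted p = 4.91e-05). Of the 24 nearest tested genes of FCRLB 11 were called lower and 1 higher (median -0.596). Around AKAP12 14 were lower and 3 higher (-0.561). Around PLAUR 6 were lower and 8 higher (-0.0591), unlike in PRO-seq. Medians around the remaining members ran from -0.211 for RAB13 to 0.295 for ANXA1. RGS16 rose from 22.4, 25.3 and 20.4 CPM to 106, 150 and 84.8 CPM (2.43 ± 0.17, adjusted p = 1.06e-07), and SYNPO from 128, 121 and 111 CPM to 239, 177 and 189 CPM (0.85 ± 0.11, adjusted p = 2.98e-05). CD163 moved with these falls, from 305 to 322 CPM in parental to 4.69 to 7.49 CPM in regrown libraries, and the myeloid list summed to 336 to 350.8 and 15.9 to 18.27 CPM with 4 of its 10 genes at 0 in each group. Its part in the members' changes was not tested.

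In cells with doxycycline 8 members were called with regrowth, 2 higher and 6 lower, where 38.4% of 13444 genes were called, 18.6% higher and 19.8% lower. RGS16 rose by 3.07 ± 0.12 on the log2 scale and SYNPO by 0.53 ± 0.09. TM4SF1 (-1.69 ± 0.15), STON1 (-1.84 ± 0.13), RAB13 (-1.77 ± 0.26), AKAP12 (-2.26 ± 0.20), PLAUR (-0.92 ± 0.17) and TGM2 (-0.96 ± 0.17) were lower, with adjusted p values from 9.11e-06 to 0.00222 in edgeR. FCRLB (0.17 ± 0.13, adjusted p = 0.337) and ANXA1 (0.16 ± 0.13, adjusted p = 0.381) did not pass. The same change without doxycycline was -0.77 and -0.62 in these genes. CD163 went from 381 to 394 CPM in parental to 5.81 to 7.89 CPM in regrown libraries with doxycycline. The myeloid list summed to 403 to 418.7 and 17.31 to 21.0 CPM, with 2 and 4 of its 10 genes at 0, and its 3 tested genes were all called lower. The 1 tested gene of the 8 endothelial markers was called higher, with a log2 change of 1.57. What part these myeloid and endothelial markers had in the members' changes was not tested.

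**Figure D2:**
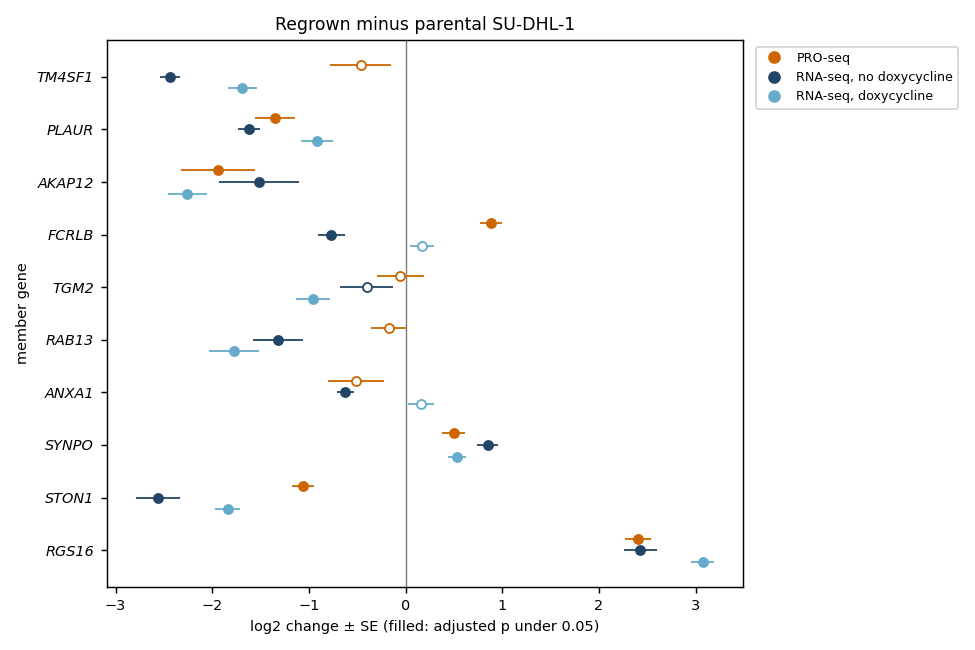
Log2 change of each member from parental to regrown SU-DHL-1, with bars of 1 SE, in PRO-seq, in RNA-seq without doxycycline and in RNA-seq with it, 3 libraries per group. Filled points passed an adjusted p of 0.05 in edgeR, and FCRLB and TM4SF1 lie apart between PRO-seq and RNA-seq without doxycycline.

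Whether RNA and polymerase counts changed unequally with regrowth was tested in a joint fit of PRO-seq and RNA-seq without doxycycline. This comparison was added after the values were seen. Tested against a difference of 0 in edgeR, 4 members were lower in RNA than in PRO-seq: TM4SF1 (-2.09 ± 0.39, adjusted p = 0.00239), FCRLB (-1.77 ± 0.18, adjusted p = 2.12e-05), STON1 (-1.61 ± 0.30, adjusted p = 0.00271) and RAB13 (-1.27 ± 0.32, adjusted p = 0.0139). Of 16313 genes 18.8% were called and 12.9% were called lower. FCRLB differed in sign, with polymerase counts up and RNA without doxycycline down. With doxycycline, which was not part of this fit, FCRLB RNA did not pass the test for regrowth (0.17 ± 0.13, edgeR adjusted p = 0.337). The length slope, which differed between the RNA libraries used here, was not tried in this fit, and its part in the difference was not tested. The 24 nearest tested genes of FCRLB had a median difference of -0.539, with 6 called lower and 0 higher. Medians of the neighbours were -0.311 for RAB13, 0.00416 for TM4SF1 and 0.125 for STON1. The other 6 members did not pass, with differences from -0.48 in TGM2 to 0.30 in AKAP12. The assays used different cells, since the RNA-seq cells also carried Cas9 and the guide, and the effect of that on this difference cannot be told apart from the assay.

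The guide's target was checked first. ZFP91 RNA was at 112, 119 and 111 CPM without and 91.7, 85.8 and 86.6 CPM with doxycycline in parental cells (-0.34 ± 0.08, adjusted p = 0.158), and at 94.3, 93.4 and 86.5 against 101, 83.6 and 75.9 CPM in regrown cells (-0.12 ± 0.10, adjusted p = 0.395). Counts of a gene cut by Cas9 need not fall, so these values neither bear out the labels nor go against them. In parental cells the labelled knockout lowered AKAP12 and FCRLB, and no member rose.

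AKAP12 was at 19.7, 24.2 and 16.8 CPM without and 7.28, 7.87 and 7.79 CPM with doxycycline, a log2 change of -1.37 ± 0.15 (adjusted p = 0.0079, edgeR). FCRLB was at 42.2, 40.9 and 36.3 CPM and then at 18.8, 21.2 and 19.1 CPM (-0.98 ± 0.11, adjusted p = 0.00707). Of 13354 genes only 57, or 0.427%, were called, 0.0599% higher and 0.367% lower. TGM2, at 16.3, 16.1 and 19.4 against 10.3, 9.81 and 7.88 CPM, just missed the threshold (-0.86 ± 0.15, adjusted p = 0.0582).

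In 7 members every library with doxycycline was below every library without it, where 10.1% of all genes had such groups, and 0 members had all libraries higher, where 5.17% of genes did. The 7 were AKAP12, FCRLB, TGM2, TM4SF1 (-0.45 ± 0.10), ANXA1 (-0.43 ± 0.13), SYNPO (-0.42 ± 0.10) and STON1 (-0.39 ± 0.10). PLAUR, RAB13 and RGS16 overlapped, with RGS16 at 20.4 to 25.3 and 18.0 to 24.9 CPM. Leaving out WT replicate 1, WT replicate 2 or KO replicate 3 ended both calls, with adjusted p from 0.0656 to 0.0864 and hardly changed sizes (-1.23 to -1.38 in AKAP12), and without KO replicate 2 the number called was 4. CD163 was at 305 to 322 and 381 to 394 CPM in these groups, so it did not move down with the members.

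In regrown cells PLAUR, ANXA1 and RGS16 were higher with doxycycline and TGM2, AKAP12 and SYNPO lower, where 31.9% of 13107 genes were called. The groups did not overlap in any of these but AKAP12, nor in RAB13, where 27.9% of genes had all libraries higher and 19.9% all lower. PLAUR was at 34.5, 32.2 and 26.3 CPM without and 49.6, 40.5 and 44.8 CPM with doxycycline in pools 1 to 3 (0.50 ± 0.12, adjusted p = 0.00662). ANXA1 rose from 317, 312 and 298 CPM to 458, 401 and 391 CPM (0.39 ± 0.08, adjusted p = 0.00277), and RGS16 from 106, 150 and 84.8 CPM to 198, 175 and 180 CPM (0.65 ± 0.15, adjusted p = 0.0068). SYNPO fell from 239, 177 and 189 CPM to 137, 122 and 125 CPM (-0.70 ± 0.10, adjusted p = 0.000669).

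TGM2 was at 17.4, 5.92 and 13.4 CPM without and 4.82, 4.21 and 5.39 CPM with doxycycline (-1.38 ± 0.31, adjusted p = 0.00493). AKAP12 was at 11.7, 1.54 and 6.50 against 2.00, 1.53 and 1.28 CPM, so pool 2 hardly differed, the groups overlapped, and without WT pool 1 its adjusted p went from 0.0101 to 0.0878. The slope on gene length differed between these groups too, and was 0.131, 0.068 and 0.265 without and -0.0841, -0.0784 and -0.0292 with doxycycline. With that slope as a covariate no gene at all was called and RGS16 turned to -0.10, so the guide, doxycycline and the length slope cannot be told apart in regrown cells. The regrown libraries without doxycycline are shared with the regrowth comparison above.

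A test of the difference between the regrown and parental responses to doxycycline called 4 members higher in regrown cells, where 9.81% of 14267 genes were called, 4.47% higher and 5.33% lower. They were ANXA1 (0.81 ± 0.16, adjusted p = 0.0238), FCRLB (0.96 ± 0.19, adjusted p = 0.0238), TM4SF1 (0.77 ± 0.18, adjusted p = 0.0273) and PLAUR (0.72 ± 0.21, adjusted p = 0.043). FCRLB, at -0.98 in parental cells, was at 23.3, 17.7 and 24.6 against 25.6, 22.4 and 18.7 CPM in regrown cells. The calls rest on single libraries: 0 members were called without parental WT replicate 2 or 3, parental KO replicate 3, regrown WT replicate 1 or 3 or regrown KO replicate 1 or 2, and 8 without regrown WT replicate 2, while the sizes of these 4 genes stayed between 0.57 and 1.07 whichever library was left out. With the length slope as a covariate the call was lost in PLAUR (0.27, adjusted p = 0.429), TM4SF1 (0.49, adjusted p = 0.161) and ANXA1 (0.49, adjusted p = 0.0604), and kept in FCRLB. The 24 nearest tested genes of FCRLB had a median of 0.397 for the difference between responses, with 6 called higher and 0 lower. Around ANXA1, TM4SF1 and PLAUR the medians were -0.0213, 0.0772 and 0.078.

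**Figure D3:**
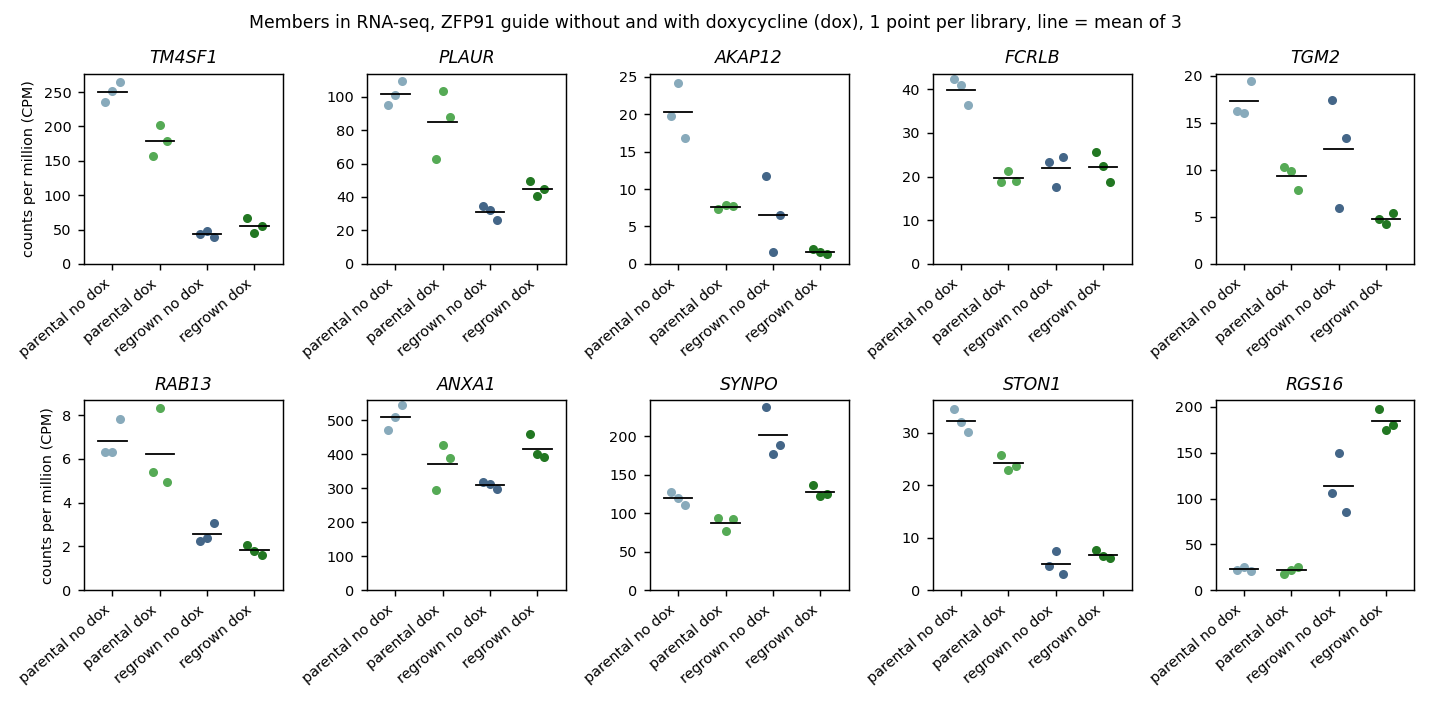
CPM of each member in the 12 RNA-seq libraries of cells with the ZFP91 guide, 1 point per library, with bars at the mean of 3, for parental and regrown SU-DHL-1 without and with doxycycline (dox). AKAP12 and FCRLB are lower with dox in parental cells, and the regrown points of AKAP12 and TGM2 without dox spread widely.

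The CSNK2B vector raised its own gene in both lines, from 30.0 to 251 CPM in SU-DHL-1 (log2 change 3.06 ± 0.05) and from 17.5 to 78.9 CPM in KI-JK (2.19 ± 0.06). In SU-DHL-1, PLAUR, ANXA1, TGM2, FCRLB and TM4SF1 fell and RGS16 rose, so 6 of 10 members were called where 6.74% of 13727 genes were, 3.39% higher and 3.34% lower. The members' median was -0.28 and that of all genes 0.00136. AKAP12, SYNPO, STON1 and RAB13 overlapped between vectors and were not called, with RAB13 at -0.28 ± 0.09 (adjusted p = 0.0769).

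ANXA1 was at 986, 978 and 951 CPM with the empty vector and 675, 686 and 646 CPM with CSNK2B (-0.54 ± 0.04, adjusted p = 6.29e-11, edgeR). PLAUR fell from 333, 342 and 326 CPM to 238, 237 and 232 CPM (-0.51 ± 0.04, adjusted p = 5.3e-10), and TGM2 from 42.2, 41.3 and 37.3 CPM to 25.0, 24.0 and 25.4 CPM (-0.71 ± 0.06, adjusted p = 1.87e-08). In each the groups were tight and well apart. Smaller falls were seen in FCRLB, from 66.8 to 69.9 CPM down to 51.0 to 57.3 CPM (-0.32 ± 0.05, adjusted p = 0.000126), and in TM4SF1, from 598 to 613 CPM down to 498 to 506 CPM (-0.28 ± 0.03, adjusted p = 3.73e-06).

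RGS16 rose in SU-DHL-1 from 30.7, 31.2 and 30.5 CPM to 49.9, 44.3 and 47.6 CPM (0.61 ± 0.06, adjusted p = 4.79e-08). CD163 was at 570 to 586 CPM with the empty vector and 572 to 579 CPM with CSNK2B.

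In KI-JK most of the called members went up instead. TM4SF1, TGM2, PLAUR, STON1 and FCRLB rose and ANXA1 fell, where 35.7% of 14104 genes were called, 18.4% higher and 17.3% lower. The members' median was 0.31 and that of all genes -0.00886. AKAP12, SYNPO and RGS16 were near the limit of counting in this line, with 4 to 33, 3 to 34 and 12 to 36 counts per library.

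TM4SF1, which was low in KI-JK, was at 1.144, 0.590 and 1.23 CPM (15 to 30 counts) with the empty vector and 3.55, 2.96 and 4.01 CPM with CSNK2B (1.85 ± 0.27, adjusted p = 1.39e-05, edgeR). PLAUR rose from 182, 190 and 186 CPM to 235, 225 and 225 CPM (0.31 ± 0.04, adjusted p = 8.46e-07) and STON1 from 74.5, 74.3 and 74.3 CPM to 86.9, 92.6 and 91.6 CPM (0.30 ± 0.04, adjusted p = 1.35e-05). ANXA1 fell from 177, 168 and 173 CPM to 117, 118 and 120 CPM (-0.53 ± 0.04, adjusted p = 1.37e-09). These 4 had no overlap between vectors.

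TGM2 was at 1.91, 3.38 and 3.73 CPM and then at 5.55, 3.76 and 4.84 CPM (0.67 ± 0.21, adjusted p = 0.0183), and without empty vector replicate 1 or CSNK2B vector replicate 1 its adjusted p was 0.12 or 0.0951. FCRLB rose by 0.20 ± 0.06 (adjusted p = 0.0146), and without empty vector replicate 3 or CSNK2B vector replicate 1 its adjusted p was 0.0756 or 0.0812. SYNPO was not called, with 21, 13 and 34 against 3, 5 and 30 counts, but without CSNK2B vector replicate 3 its log2 change went from -0.92 to -2.40 (adjusted p = 0.00508). CD163 was higher with CSNK2B in KI-JK, at 4.71 to 6.02 and then 30.4 to 33.4 CPM, but the myeloid list summed to 176 to 180.5 and 174.3 to 175.7 CPM, with 1 of 3 tested genes higher and 1 lower. The epithelial list had 3 of 3 tested genes lower, and summed to 4.127 to 28.92 and 0.4174 to 8.746 CPM. The part of these markers in the members' changes was not tested.

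A direct test of the difference between the lines, added after the values were seen, called 5 members higher in KI-JK and none lower, where 19.2% of 15564 genes were called and 10.7% were called higher and 8.44% lower. The differences were 2.15 ± 0.18 in TM4SF1 (adjusted p = 6.77e-10, edgeR), 1.38 ± 0.19 in TGM2 (adjusted p = 4.65e-06), 0.83 ± 0.05 in PLAUR (adjusted p = 2.03e-12), 0.53 ± 0.08 in FCRLB (adjusted p = 1.94e-05) and 0.33 ± 0.07 in STON1 (adjusted p = 0.000641). The joint fit used a common spread per gene for both lines. Its SE for TM4SF1 and TGM2 was below that in KI-JK alone, 0.27 and 0.21, so the SE and p-values of these 2 may be too small. ANXA1 had nearly the same change in both lines, with a difference of 0.03 ± 0.06. The vector raised CSNK2B less in KI-JK, with a difference of -0.86 ± 0.08 on the log2 scale, and the lines also differed in serum, so neither can be told apart from the line.

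**Figure D4:**
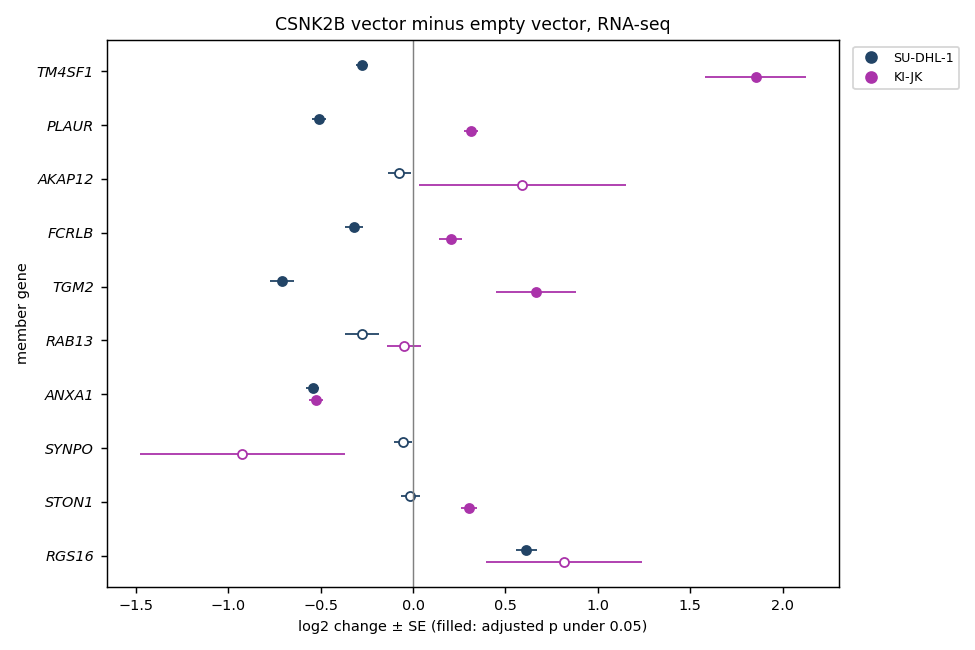
Log2 change of each member with the CSNK2B vector against the empty vector in SU-DHL-1 and KI-JK, with bars of 1 SE, 3 libraries per group and filled points for an adjusted p under 0.05 in edgeR. TM4SF1, PLAUR, FCRLB and TGM2 lie on opposite sides of 0 in the 2 lines, and the ANXA1 points lie together.

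Across the 14 groups, each set against the mean of its own table, the members did not all move as a set. TGM2 was closest to the average of the other 9, with r = 0.967, followed by RAB13 (0.895), FCRLB (0.883), PLAUR (0.867), TM4SF1 (0.830), ANXA1 (0.807), AKAP12 (0.758) and STON1 (0.739). SYNPO (0.376) and RGS16 (-0.396) stood apart. Groups within a table share libraries' preparation and depth, and the DGE groups that chose the members enter these values, so they are given as a description.

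The non-members most like the members' average over the 14 groups were ALDH1L2, a mitochondrial folate enzyme (r = 0.976), SCG5, a secretory granule protein (0.970), PHC2, a Polycomb protein (0.961), the pseudogene PABPC1P4 (0.960) and RRAGC, a GTPase of nutrient signalling (0.957), out of 10259 genes. ALDH1L2, SCG5 and PABPC1P4 did not pass the filter on low counts in any DGE comparison. PABPC1P4 also failed it in every comparison within RNA-seq, so the r values of these genes rest partly on low counts. Likeness over groups is not likeness of size: with regrowth in RNA without doxycycline RRAGC had a log2 change of -0.05 ± 0.13 (edgeR adjusted p = 0.779) and ALDH1L2 -1.13 ± 0.47 (adjusted p = 0.0661).

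Relatives and partners of the members were counted from lists that leave the members out. Of 22 other genes of the urokinase receptor system, 4 of the 11 tested in PRO-seq were lower with regrowth and 0 were higher, where 16.2% of all genes were lower and 14% higher. Among the 4 were MMP14, a membrane-bound protease (-1.13 ± 0.19, adjusted p = 0.00152), and the integrin subunit ITGB1 (-0.51 ± 0.11, adjusted p = 0.00504). In RNA without doxycycline 4 of 9 were lower and 1 higher, where 21.1% of all genes were lower and 22.6% higher, with the integrin subunit ITGA5 at -1.90 ± 0.32 (adjusted p = 0.000285). With CSNK2B, ITGB1 and ITGA5 were the 2 genes called of 12 in SU-DHL-1, both lower (-0.21 ± 0.04 and -0.46 ± 0.10), where 3.34% of all genes were lower. In KI-JK 3 of 14 were lower and 1 higher, where 17.3% of all genes were lower and 18.4% higher.

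Among 17 annexins, partners and formyl peptide receptors, 2 of 11 were higher and 6 lower in RNA with regrowth without doxycycline, with a median of -0.52. Of all genes 22.6% were higher and 21.1% lower in that comparison. S100A10, the partner of annexin A2, was among the 6 lower genes of the list (-2.94 ± 0.23, edgeR adjusted p = 2.03e-07). With doxycycline the shift of the list with regrowth was not seen, with 2 of 11 higher, 4 lower and a median of 0.00998. Of all genes 18.6% were higher and 19.8% lower there. With CSNK2B in KI-JK, 9 of 12 were lower and 0 higher, where 17.3% of all genes were lower and 18.4% higher. S100A10 was at -0.33 ± 0.04 and ANXA3 at -0.47 ± 0.04. In SU-DHL-1 S100A10 was the only call of 11 (-0.50 ± 0.04, edgeR adjusted p = 3.39e-09), where 6.74% of all genes were called. The TM4SF and tetraspanin genes went both ways with regrowth, with 1 of 14 higher and 1 lower in PRO-seq and 4 of 14 higher and 4 lower in RNA without doxycycline (median 0.0613). Of all genes 14% were higher and 16.2% lower in PRO-seq, and 22.6% and 21.1% in RNA, so no result about this family is read from the counts. CD82 was lower with regrowth in PRO-seq (-1.88 ± 0.27, adjusted p = 0.000532) and in RNA (-3.07 ± 0.21, adjusted p = 6.78e-08), and it was the only call of 15 with CSNK2B in SU-DHL-1 (-0.49 ± 0.07, adjusted p = 1.29e-05).

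Of the other regulators of G protein signalling, 3 of 9 tested were higher and 1 lower with regrowth in PRO-seq, where 14% of all genes were higher, with RGS2 at 0.74 ± 0.15 and RGS8 at 1.13 ± 0.26. In RNA without doxycycline 3 of 10 were higher and 3 lower, with a median of -0.218, where 22.6% of all genes were higher and 21.1% lower. RGS8 was the only call of 12 with CSNK2B in SU-DHL-1 (1.04 ± 0.21, edgeR adjusted p = 0.00249), where 6.74% of all genes were called. Of the stonins and clathrin adaptors 1 of 19 was higher and 3 lower with regrowth in PRO-seq, where 14% of all genes were higher and 16.2% lower. STON2, the relative of STON1, was lower with regrowth in PRO-seq (-1.11 ± 0.24, adjusted p = 0.00626), while AP2M1, a clathrin adaptor subunit, was higher (1.195 ± 0.17, adjusted p = 0.000602). Of 16 actin crosslinkers and related genes 6 were higher and 4 lower with regrowth in RNA without doxycycline, where 22.6% of all genes were higher and 21.1% lower. ACTN1 was lower (-1.11 ± 0.11) and ACTN4 higher (0.95 ± 0.12). In the same comparison, 2 lists went mostly opposite to their member. Of GTPases related to RAB13 and their partners 11 of 20 were higher and 3 lower (median 0.315), while RAB13 was lower. Of A-kinase anchoring and protein kinase A genes 6 of 18 were higher and 2 lower (median 0.221), while AKAP12 was lower. In PRO-seq 1 of 18 was higher and 1 lower in the RAB13 list, and 1 of 16 higher and 5 lower in the A-kinase list. With the ZFP91 guide in parental cells, 1 non-member of all 10 family lists was called, where 0.427% of all genes were. It was PALLD, an actin-bundling protein (-0.70 ± 0.11, edgeR adjusted p = 0.0386).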

How the data were processed

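Gene counts deposited by the authors were used as raw counts for 42 libraries in 5 tables, with no normalization. Per the submitters' processing notes, PRO-seq used cutadapt 1.14, Bowtie 1.2.2 and featureCounts 1.6.2 on hg38, DGE used Bowtie2 2.2.3 on hg19, and RNA-seq used STAR 2.6.1d on hg38. The counter of the RNA-seq reads is not given in the sources used here, and whether DGE counts are molecules or reads is not stated.

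Each comparison was fitted on its own groups of 3 libraries with edgeR 4.0.16 (R 4.3.3): filterByExpr, TMM scaling and the quasi-likelihood test, and p-values adjusted by Benjamini-Hochberg across every gene tested. Called means an adjusted p under 0.05, and SE was taken as the size of the log2 change over the root of the F statistic. The models were tested on simulated data. CPM is a count scaled to a common library total, and for levels between genes it was divided by the length counted in PRO-seq. Intervals on pooled DGE ratios are exact 95% counting intervals.

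The members and lists were chosen with earlier results of these data known. All 10 members are described in every comparison, other genes come from lists of relatives and partners (at most 3 called genes per list and comparison, by smallest p), and the 5 most similar genes were taken by correlation over 14 groups among 10259 genes at 5 CPM or more in a group. The RNA minus PRO difference and the KI-JK minus SU-DHL-1 difference were added after the data were seen. Alternatives were DESeq2 1.42.0, other filters and scalings, a length slope, thinning, the replicate block and leaving out each library. Equal numbers mark the same pool by label in regrown cells only, so only comparisons within regrown cells could be paired. The main fits did not use this pairing, and the SE and p-values printed for regrown cells ignore it. The replicate block was run only as an alternative. In comparisons not within regrown cells numbers are only names, and no comparison had all 3 same-number correlations over 0.1.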

Additional observations from a re-analysis of the deposited data

Results flagged for a closer look

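The response to doxycycline in cells with the ZFP91 guide differed between regrown and parental SU-DHL-1 by a test of the difference itself in 4 members. The log2 difference was 0.77 in TM4SF1, 0.72 in PLAUR, 0.96 in FCRLB and 0.81 in ANXA1, each higher in regrown cells. Each of these calls was lost when any of 7 single libraries was left out, as described above.

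The response to the CSNK2B vector differed between KI-JK and SU-DHL-1 in 5 members, each higher in KI-JK. The log2 difference was 2.15 in TM4SF1, 1.38 in TGM2, 0.83 in PLAUR, 0.53 in FCRLB and 0.33 in STON1. TM4SF1 had only 15 to 30 counts per empty vector library in KI-JK.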

How the results depend on the processing

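Of 216 values of comparisons under alternatives, 197 stayed within 1.5 times the count or the spread and 19 moved. Of 2052 values of single members, 1951 were labelled the same. In tested comparisons this means that no call was gained, lost or reversed. A change of sign in a member called in neither fit also counts as the same. In DGE, where members carry no call, it means a log2 change within the spread between libraries. The number of members called for the labelled knockout in parental cells, 2, was 6 without a filter, 5 with DESeq2 and 8 with the length slope, and 0 to 4 with 1 library left out. In regrown cells it was 6, and 0 with the length slope, where RGS16 reversed to -0.10. For the difference between these responses it was 4, 1 with the length slope and 0 to 8 with 1 library left out. With the replicate block it was 6 for that difference and stayed 6 for the paired regrown cells. The replicate block also called ANXA1 in PRO-seq (-0.55, edgeR adjusted p = 0.00676), where numbers do not pair libraries. The median log2 change with lenalidomide in regrown DGE, 2.62, was 1.90 after thinning and 2.22 to 2.74 with 1 library left out. Causes of these changes were not tested. Depth limits DGE most, where several members had under 10 counts per library.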
